A study of Mus musculus with 12 samples.

Results

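Secreted growth factors and the proteins that hold growth factors in check were followed through 8 genes: the epidermal growth factor (EGF) family ligands Areg, Ereg and Hbegf, the angiogenic factor Vegfa, the hepatocyte growth factor Hgf, the insulin-like growth factor (IGF) binding proteins Igfbp3 and Igfbp5, and the decoy receptor Tnfrsf11b. They were chosen by name, and 13 probes on the array map to them. Of 17305 genes with a named probe on the array, these are 8, and all 8 were among the 18430 features tested. Areg passed the filter on dim probes only through the irradiated Atm-KO group, and Ereg only through the irradiated groups of both genotypes.

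The data come from mouse embryonic fibroblasts, connective tissue cells cultured from embryos, that lack the DNA-damage kinase gene Atm (Atm-KO) or carry it intact (Atm-WT). Cells of either genotype received 4.32 Gy or stayed nonirradiated, and gene expression was read 72 h after irradiation on 12 single-colour arrays, 3 in each of the 4 groups. The Atm allele, the strain, the age of the embryos and the number of embryos behind each genotype are not given in the sources used here. The labels name the 3 samples of a group as replicates without saying whether they were separate cultures. The p-values below therefore rest on a spread between samples that may be technical.

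Ligands of the EGF family are made as membrane proteins, cut loose by proteases, and bind EGF receptors on the same or neighbouring cells, which switches on the ERK pathway and cell division. IGF binding proteins carry IGF and limit or prolong its action on the IGF receptor, and osteoprotegerin, the product of Tnfrsf11b, soaks up the osteoclast-forming ligand RANKL. Fibroblasts that stop dividing after DNA damage are known for releasing many such factors, which together form part of the senescence-associated secretory phenotype.

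Levels are log2 of the processed signal minus the array's 75th percentile, so that 0 is the 75th percentile. The 75th percentile ran from 379 to 757 signal units between arrays, 55.3% to 64.5% of probes were well above background, and no spot was saturated. Precision is limited by the 3 arrays in each group. All 10 fibroblast markers were well above background on all 12 arrays, with a summed level of 10.28 to 10.98. Atm itself was at -7.50 to -5.67 in irradiated Atm-KO cells, against -4.60 to -2.87 in irradiated Atm-WT cells. In nonirradiated cells it was at -7.01 to -5.43 in Atm-KO and -5.65 to -3.55 in Atm-WT samples, and these ranges overlapped by 1 sample of each genotype. The differences were -2.52 ± 0.66 and -1.73 ± 0.66, with limma adjusted p of 0.225 and 0.476. With samples of the same number held as a block, limma's adjusted p in irradiated cells was 0.00287. Atm was tested only because irradiated Atm-WT cells had it well above background on all 3 arrays, so its p-values in irradiated cells are a description. In Atm-KO cells it was well above background on 1 of 3 irradiated and 0 of 3 nonirradiated arrays. Whether the Atm probe lies in the part that the knockout removes was not given in the sources at hand. Cdkn1a, the other gene chosen to check the labels, was at 4.95 to 5.70 in irradiated and 4.06 to 4.66 in nonirradiated Atm-WT cells. In Atm-KO cells it was at 4.88 to 5.86 when irradiated and 4.59 to 5.15 when nonirradiated, and these ranges overlapped. The arrays lay on 3 slides of 4, the first with numbers 1 and 2 of both Atm-WT groups, the second with number 3 of the Atm-WT and number 1 of the Atm-KO groups, and the third with numbers 2 and 3 of the Atm-KO groups. On every slide the irradiated samples were at positions 2 and 4 and the nonirradiated ones at 1 and 3, and the effects of slide position and of irradiation cannot be told apart.

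The promoters shown are those of Areg and Igfbp5, since these members passed a test of irradiation, with opposite signs. RefSeq windows of 300 bases (250 before the start of the gene and 50 after it, build GRCm38.p6) matched 5 of the 8 members. Capitals mark 3 motifs, searched on both strands. They are the cAMP response element with the letters TGACGTCA, the TATA box as the letters TATAAA, and the GC box, written GGGCGG, none of which overlaps another here. The Areg window lies at chr5:91139349-91139648 on the + strand and the Igfbp5 window at chr1:72874816-72875115 on the - strand.
Areg: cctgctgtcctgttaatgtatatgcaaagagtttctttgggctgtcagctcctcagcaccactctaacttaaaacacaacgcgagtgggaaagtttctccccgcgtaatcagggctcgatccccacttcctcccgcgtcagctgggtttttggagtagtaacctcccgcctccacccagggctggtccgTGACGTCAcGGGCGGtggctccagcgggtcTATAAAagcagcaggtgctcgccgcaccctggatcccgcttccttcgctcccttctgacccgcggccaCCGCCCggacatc
Igfbp5: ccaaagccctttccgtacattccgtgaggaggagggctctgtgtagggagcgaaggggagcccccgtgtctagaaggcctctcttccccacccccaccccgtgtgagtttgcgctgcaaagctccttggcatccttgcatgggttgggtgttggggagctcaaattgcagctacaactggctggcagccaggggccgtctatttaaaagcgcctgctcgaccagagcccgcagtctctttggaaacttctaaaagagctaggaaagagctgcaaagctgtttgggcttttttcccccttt
In the Areg window TGACGTCA stood 61 bases before the start, TATAAA 31 bases before it, and GGGCGG 52 bases before and, on the other strand, 37 bases after it. Of 32851 promoter windows of the same length, 1.79% hold TGACGTCA, 13.6% TATAAA and 35.7% GGGCGG. In the Igfbp5 window none of these letters was found, nor TGANTCA (the AP-1 site, in 7.81% of windows) or ACGTG (the hypoxia response core, in 19.6%). A match is a description of the letters and says nothing here about a factor being bound.

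In limma's fit of all 12 arrays, with Benjamini-Hochberg adjustment over 18430 features, 0 of 8 members passed in any of the 5 comparisons. That fit called 0.00543% of all features for irradiation in Atm-KO cells and 0.445% for irradiation in Atm-WT cells. It called 0.00543% for the difference between these effects, 0.206% for Atm-KO against Atm-WT in irradiated cells and 0.857% for the same in nonirradiated cells. At an unadjusted p under 0.05 the members passing in that fit numbered 2 for irradiation in Atm-KO cells and 3 in Atm-WT cells, 0 for the difference of effects, 3 for genotype in irradiated cells and 3 for genotype in nonirradiated cells. Over all 18430 features the corresponding numbers were 1462, 1190, 166, 963 and 1386.

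Same-numbered samples deviated together from their group means for irradiation in either genotype and for genotype in irradiated cells. Further limma fits therefore held the number as a block. For irradiation and the difference of its effects, the block was the pair of samples of the same number and genotype. For genotype it was a number term shared by all groups, irradiated and nonirradiated. The genotype calls with the block therefore also assume a shared number effect in nonirradiated cells, which the deviations there did not show. With the replicate block Areg rose on irradiation in Atm-KO cells (1 of 8 members, against 2.05% of all features called and 1.18% called higher). Igfbp5 fell in Atm-WT cells with the block (1 of 8, against 2.26% called and 0.624% called lower). When both genotypes were irradiated, Areg and Hbegf were higher in Atm-KO cells (2 of 8, against 0.76% of all features called and 0.304% called higher). Areg was tested only because irradiated Atm-KO cells had it above background, so its calls for irradiation in Atm-KO cells and for genotype in irradiated cells are a description, and nothing is read from these counts against the shares of all features. For the difference of the irradiation effects no member passed with the block, where 0.0217% of all features did. For genotype in nonirradiated cells, where same-numbered samples did not deviate together, the block called 1.71% of all features, and its members are given only among the alternatives.

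**Figure D1:**
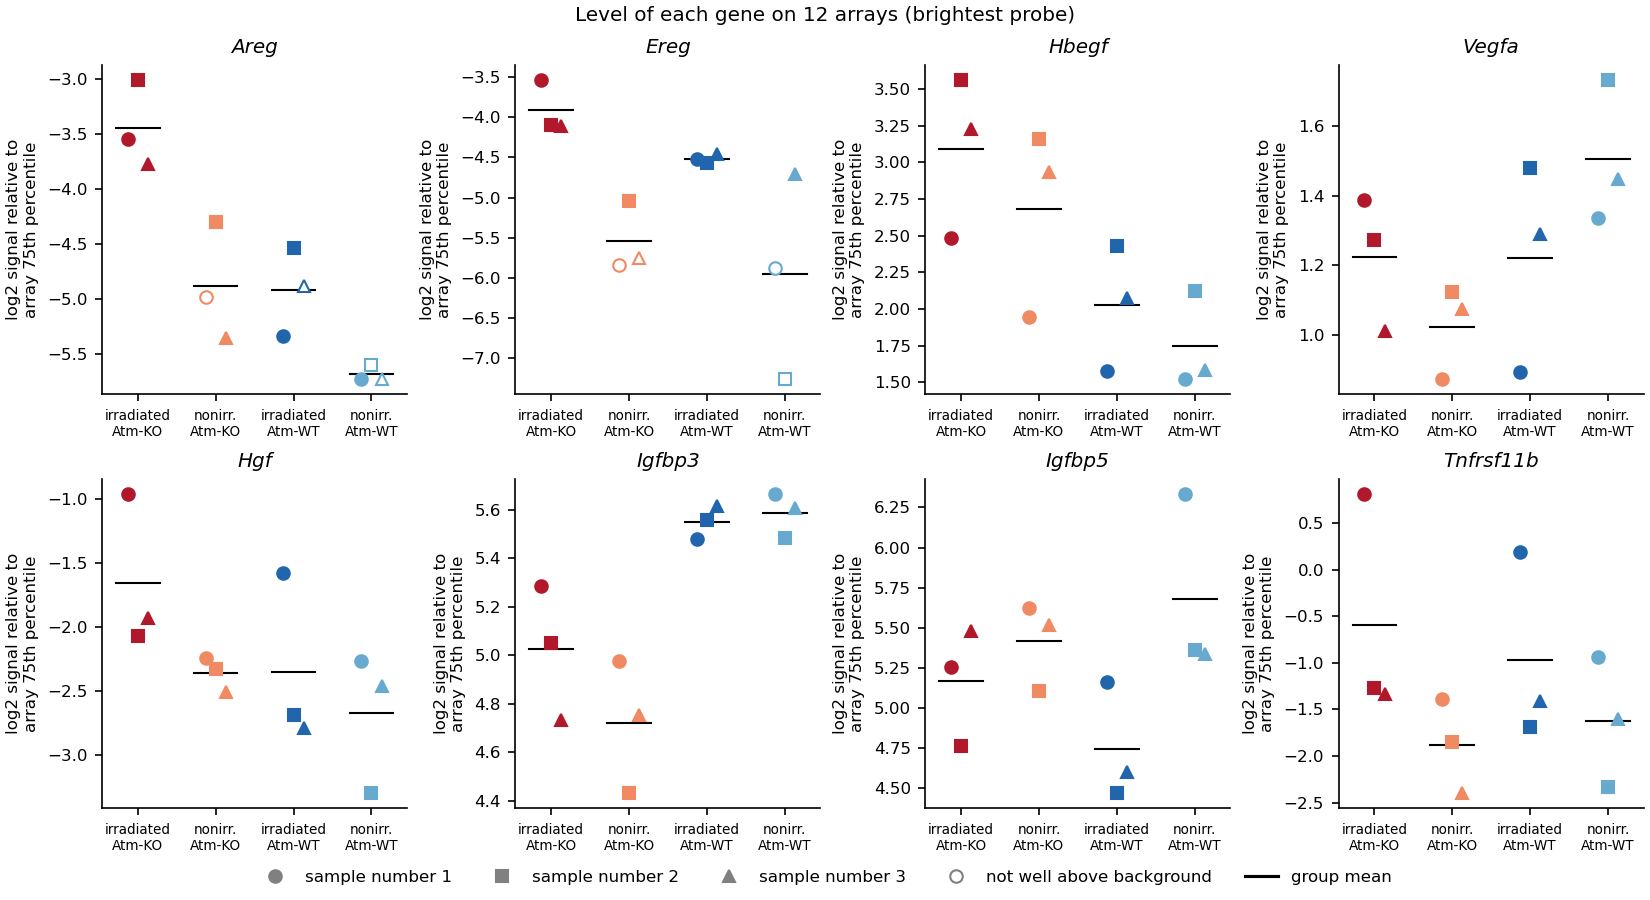
Level of each of the 8 genes (y axis, log2 processed signal minus the array's 75th percentile) on each of the 12 arrays, by group, with irradiated Atm-KO samples leftmost. Circles, squares and triangles are sample numbers 1, 2 and 3, open symbols are arrays where the probe was not well above background, and bars are group means; the 3 irradiated Atm-KO values of Areg, from -3.77 to -3.01, lie above all 9 others.

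Areg encodes amphiregulin, a ligand of the EGF receptor. In Atm-KO cells its level was -3.55, -3.01 and -3.77 in irradiated samples, against -4.98, -4.30 and -5.36 in nonirradiated ones. In Atm-WT cells it was -5.34, -4.54 and -4.88 in irradiated samples, against -5.73, -5.60 and -5.73 in nonirradiated ones. All 3 irradiated Atm-KO samples were above every other sample, and within each genotype the irradiated and nonirradiated samples did not overlap. The probe was dim: it was well above background on 3 of 3, 2 of 3, 2 of 3 and 1 of 3 arrays in that order of groups, and its mean processed signal was 53.9, 16.3, 17.5 and 9.18 units.

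In Atm-KO cells the irradiated samples exceeded the nonirradiated ones by 1.44 ± 0.32 (limma SE, n = 3 each), a 2.71-fold difference, with adjusted p = 0.179. As pairs of the same number they differed by 1.43, 1.29 and 1.58, and with the replicate block limma gave 1.44 ± 0.19 and an adjusted p of 0.0154. The rise was as large on either slide that holds Atm-KO samples, 1.43 on the second and 1.44 on the third. The call was lost without number 3 of the Atm-KO samples (adjusted p = 0.0855 with the block) and held in the other 5 fits that left out 1 pair. Over 28 alternative settings limma's difference ran from 0.47 to 1.72 and its adjusted p from 0.0154 to 0.99998, past the threshold in 6.

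In Atm-WT cells the irradiated samples of Areg were higher by 0.77 ± 0.32, with pairs at 0.39, 1.06 and 0.84, which did not pass in limma (adjusted p = 0.683, and 0.0891 with the block). With normexp background correction, which adds 50 signal units, the sign of this difference turned (-0.68). The Atm-KO effect exceeded the Atm-WT effect by 0.67 ± 0.45 (limma adjusted p = 0.9999, and 0.977 with the block), so a difference between the genotypes in the response of Areg was not shown.

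Between genotypes, Areg was 1.48 ± 0.32 higher in irradiated Atm-KO cells than in irradiated Atm-WT cells, 2.78-fold, with limma's adjusted p at 0.118, and at 0.0207 with the replicate block. That call was kept in 2 of 6 fits that left out 1 number of 1 genotype (number 1 of either), and was lost without number 2 or 3 of either genotype (adjusted p from 0.0529 to 0.226). With slide as a fixed term the difference was 1.38 (adjusted p = 0.579), and within the second slide, which holds 1 sample of each group, it was 1.34. In nonirradiated cells the difference was 0.81 ± 0.32 (adjusted p = 0.505), 0.75 within the second slide and -0.56 after normexp. For this and every other gene, the second slide sets number 1 of Atm-KO against number 3 of Atm-WT, so slide and number cannot be told apart there.

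Ereg encodes epiregulin, another EGF receptor ligand, which stands next to amphiregulin in the family. In Atm-KO cells it was at -3.54, -4.09 and -4.11 in irradiated samples, against -5.84, -5.04 and -5.75 in nonirradiated ones. In Atm-WT cells it was at -4.52, -4.57 and -4.46 in irradiated samples, against -5.87, -7.26 and -4.70 in nonirradiated ones. Irradiated and nonirradiated samples did not overlap in either genotype, but the nonirradiated Atm-WT values spread from -7.26 to -4.70. Ereg was well above background on all irradiated arrays and on 1 of 3 nonirradiated arrays of each genotype, so the low values are close to the background.

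The irradiated samples of Ereg were higher by 1.63 ± 0.50 in Atm-KO cells (limma adjusted p = 0.351, and 0.0834 with the block). In Atm-WT cells they were higher by 1.43 ± 0.50 (adjusted p = 0.506, and 0.134 with the block), a difference that turned to -0.53 after normexp. All 6 pairs had the irradiated sample higher, from 0.95 to 2.30 in Atm-KO and from 0.24 to 2.69 in Atm-WT cells. Neither difference passed in limma with or without the pairs, and the effects differed between the genotypes by 0.20 ± 0.71. In irradiated cells Ereg was 0.61 ± 0.50 higher in Atm-KO cells, and the 3 Atm-KO values lay above the 3 Atm-WT values. With slide as a fixed term this difference was -0.00285, and on the second slide alone it was 0.92.

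Hbegf encodes the heparin-binding EGF-like factor, which binds the EGF receptor. In irradiated samples it was at 2.48, 3.56 and 3.23 in Atm-KO cells, against 1.58, 2.43 and 2.07 in Atm-WT cells. In nonirradiated samples it was at 1.95, 3.16 and 2.93 in Atm-KO cells, against 1.52, 2.12 and 1.59 in Atm-WT cells. The irradiated samples of the genotypes did not overlap, while in nonirradiated cells number 1 of Atm-KO lay below number 2 of Atm-WT. All 12 arrays had the probe well above background.

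Atm-KO cells had 1.07 ± 0.38 more Hbegf than Atm-WT cells when irradiated, 2.09-fold, with limma's adjusted p at 0.594 and, with the replicate block, 0.0445. Leaving out number 1 of either genotype kept that call, and leaving out number 2 or 3 of either ended it (adjusted p from 0.252 to 0.602). Without number 1 of all 4 groups, an alternative added after seeing the data, the difference was 1.15 with an adjusted p of 0.0472 and no block. With slide as a fixed term the irradiated difference was 0.45 (limma adjusted p = 0.693), and within the second slide it was 0.41. Only the second slide holds both genotypes, so both values compare the genotypes there, number 1 of Atm-KO against number 3 of Atm-WT. Over all groups Hbegf was 0.75 lower in number 1 than in the other numbers. The effects of slide and of sample number cannot be told apart in these values. In nonirradiated cells the difference was 0.94 ± 0.38 (adjusted p = 0.546), 0.32 with slide as a fixed term and 0.36 within the second slide. Irradiated samples were above their nonirradiated partners in all 6 pairs, by 0.30 to 0.54 in Atm-KO and by 0.06 to 0.49 in Atm-WT cells, and neither effect passed (0.41 ± 0.38 and 0.28 ± 0.38, adjusted p = 0.872 and 0.99997).

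**Figure D2:**
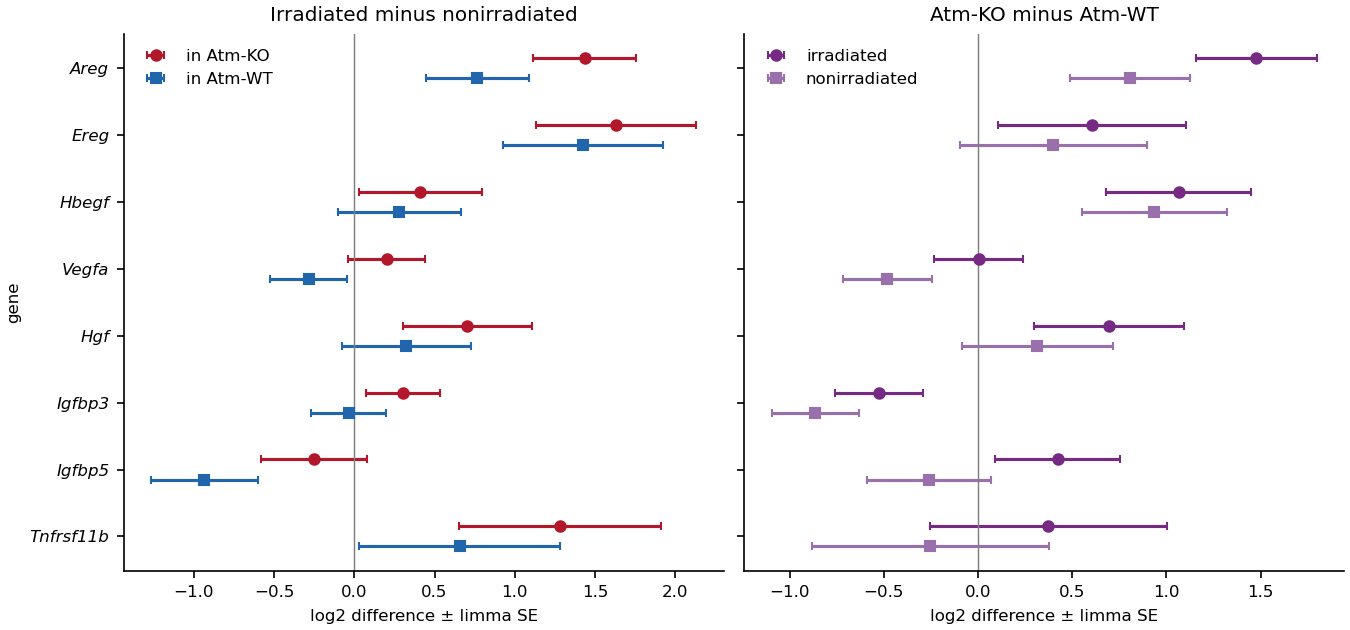
Log2 differences of the 8 genes with limma standard errors (n = 3 arrays per group), irradiated minus nonirradiated on the left and Atm-KO minus Atm-WT on the right. Areg and Ereg stand highest for irradiation in Atm-KO cells (1.44 and 1.63), Igfbp5 stands lowest in Atm-WT cells (-0.93), and none of the points passed limma's adjusted threshold in this fit.

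Other genes of the EGF pathway, from a list of 18 ligands, receptors, proteases and inhibitors, showed no call. Of these 9 were tested, and 0 passed in any comparison with or without the block. Their median difference was 0.20 for irradiation in Atm-KO cells, against a median of -0.05 over all features, and 7 of 9 were above 0. For irradiation in Atm-WT cells the median was 0.09, with 6 of 9 above 0. Between genotypes it was 0.04 in irradiated cells, with 5 of 9 above 0, and -0.25 in nonirradiated cells, with 4 of 9 above 0. Rhbdf2, which helps the protease ADAM17 to reach the cell surface, differed by 0.29 between irradiated and nonirradiated Atm-KO cells and by 0.56 between the same groups of Atm-WT cells, neither past the threshold. Among 10 feedback genes that the ERK pathway switches on, 9 had a positive difference on irradiation in each genotype. The medians were 0.40 in Atm-KO and 0.32 in Atm-WT cells, against -0.05 and -0.02 over all features. Of the 10, 1 passed, in Atm-KO cells with limma's replicate block, which called 1.18% of all features higher. It was Dusp4, a phosphatase that acts on ERK, with a rise of 0.95 ± 0.18 (adjusted p = 0.0355, against 0.259 without the block). Its level was -1.71 ± 0.26 in irradiated and -2.66 ± 0.21 in nonirradiated Atm-KO cells (SD, n = 3 each).

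Vegfa, which draws in and sustains blood vessels, was measured by 4 probes that did not agree on the sign in Atm-WT cells. On the brightest probe, Atm-KO cells were at 1.39, 1.27 and 1.01 when irradiated and 0.87, 1.12 and 1.07 when not. Atm-WT cells were at 0.89, 1.48 and 1.29 when irradiated and 1.34, 1.73 and 1.45 when not. The irradiated and nonirradiated samples overlapped in both genotypes, and the nonirradiated Atm-KO values lay below the nonirradiated Atm-WT ones. Irradiation differences on this probe were 0.20 ± 0.24 in Atm-KO and -0.28 ± 0.24 in Atm-WT cells. On the 3 dimmer probes they were 0.47 to 0.57 in Atm-KO cells and 0.04 to 0.31 in Atm-WT cells. None of these passed in limma, and the mean over all probes gave 0.07 in Atm-WT cells. The Atm-KO minus Atm-WT difference in nonirradiated cells was -0.48 ± 0.24 on the brightest probe (adjusted p = 0.730) and -0.31 to -0.10 on the others.

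Among 9 other genes of the VEGF family and its receptors, all tested, none passed for irradiation. Vegfd, a growth factor for lymphatic vessels, was lower in Atm-KO cells, at 4.04 ± 0.26 in irradiated Atm-KO and 5.28 ± 0.59 in irradiated Atm-WT cells (SD, n = 3 each). The difference was -1.24 ± 0.22 with limma's replicate block (adjusted p = 0.0386, against 0.234 without it). Vegfd was 1 of 9 called there, where the block called 0.76% of all features in either direction. In nonirradiated cells Vegfd was at 3.89 ± 0.04 in Atm-KO and 5.07 ± 0.47 in Atm-WT cells, a difference of -1.18 that limma gave an adjusted p of 0.185.

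**Figure D3:**
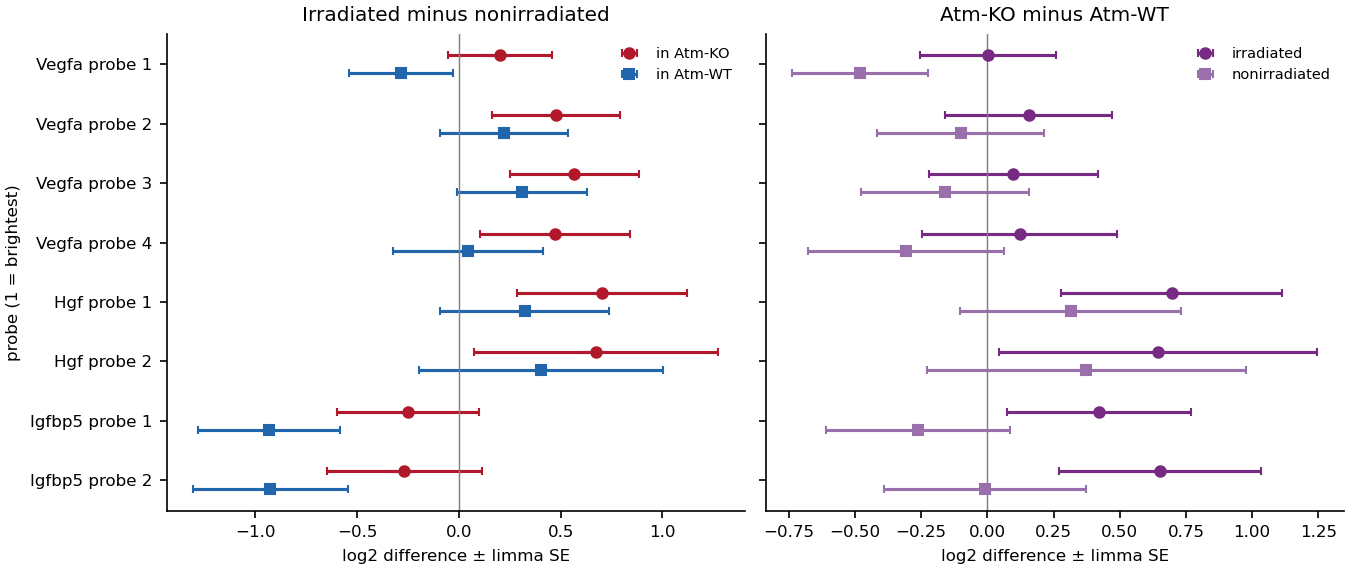
Log2 differences with limma standard errors (fit over all probes, n = 3 arrays per group) for each probe of Vegfa, Hgf and Igfbp5, numbered from the brightest down. In Atm-WT cells the brightest Vegfa probe stands at -0.28 and the other 3 between 0.04 and 0.31, while both Igfbp5 probes stand at -0.93.

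Hgf encodes hepatocyte growth factor, which fibroblasts make and epithelial cells receive through the receptor MET. Irradiated Atm-KO samples were at -0.96, -2.07 and -1.92, against -2.24, -2.33 and -2.50 in nonirradiated Atm-KO samples. Irradiated Atm-WT samples were at -1.58, -2.68 and -2.78, against -2.26, -3.30 and -2.46 in nonirradiated Atm-WT samples. The Atm-KO groups did not overlap, the Atm-WT groups did, and number 1 was the highest of its group in all 4. Irradiated samples were higher by 0.70 ± 0.40 in Atm-KO (adjusted p = 0.746) and 0.32 ± 0.40 in Atm-WT cells (adjusted p = 0.99997), and the sign in Atm-WT cells turned after normexp (-0.19). The dimmer probe, well above background on 11 of 12 arrays, gave 0.67 and 0.40. In the pairs the difference was 1.28, 0.26 and 0.58 in Atm-KO cells, and 0.68, 0.61 and -0.33 in Atm-WT cells.

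Of 8 genes around HGF (its relatives, receptors, activating proteases and their inhibitors), 7 were tested. With the replicate block 1 rose on irradiation in each genotype, and it was the same gene: St14, the membrane protease matriptase, which can activate pro-HGF. The block called 1.18% of all features higher in Atm-KO cells, and 2.26% in either direction in Atm-WT cells. St14 was at -1.33 ± 0.40 in irradiated and -2.82 ± 0.37 in nonirradiated Atm-KO cells, and at -1.83 ± 0.29 in irradiated and -3.28 ± 0.54 in nonirradiated Atm-WT cells (SD, n = 3 each). The differences were 1.49 ± 0.26 and 1.45 ± 0.26, with adjusted p of 0.0275 and 0.0225 by limma with the block, and 0.179 and 0.125 without it.

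Igfbp3, the main IGF carrier of blood plasma, lay lower in Atm-KO cells than in Atm-WT cells on every array, without passing the test. In irradiated cells it was at 5.29, 5.05 and 4.73 in Atm-KO samples, against 5.48, 5.56 and 5.62 in Atm-WT samples. In nonirradiated cells it was at 4.98, 4.43 and 4.76 in Atm-KO samples, against 5.66, 5.49 and 5.61 in Atm-WT samples. Every Atm-KO sample lay below every Atm-WT sample in both treatments. The Atm-KO minus Atm-WT difference was -0.53 ± 0.23 when irradiated (limma adjusted p = 0.893, and 0.386 with the block) and -0.86 ± 0.23 when nonirradiated (adjusted p = 0.170), so neither passed.

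Within the second slide the Igfbp3 differences were -0.33 in irradiated and -0.63 in nonirradiated cells. Without number 1 of all groups, added after seeing the data, the nonirradiated difference was -0.95 with an adjusted p of 0.0256. Irradiation moved Igfbp3 by 0.30 ± 0.23 in Atm-KO and -0.03 ± 0.23 in Atm-WT cells, whose pairs differed by -0.19, 0.07 and 0.01, and the sign in Atm-WT cells turned to 0.29 after normexp and to 0.01 after quantile normalization.

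Igfbp5, an IGF binding protein that fibroblasts also deposit in the matrix, was the only member that passed with a lower level after irradiation. In Atm-WT cells it was at 5.16, 4.47 and 4.60 when irradiated, against 6.33, 5.36 and 5.33 when nonirradiated. In Atm-KO cells it was at 5.25, 4.76 and 5.48 when irradiated, against 5.62, 5.10 and 5.52 when nonirradiated. The Atm-WT groups did not overlap and the Atm-KO groups did. In Atm-WT cells Igfbp5 was lower by a log2 difference of -0.93 ± 0.33 (0.523-fold) with an adjusted p of 0.522, and with the replicate block the standard error was 0.18 and limma's adjusted p 0.0341.

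The 3 Atm-WT pairs of Igfbp5 differed by -1.17, -0.89 and -0.73, and its other probe also gave -0.93. The difference was -1.03 on the first slide and -0.73 on the second. The call held in 2 of 6 fits that left out 1 pair, those without number 1 or 2 of Atm-KO, and was lost without number 3 of Atm-KO (adjusted p = 0.0584) or without number 1, 2 or 3 of Atm-WT (0.288, 0.217 and 0.113). Over 29 alternative settings the adjusted p ran from 0.0201 to 0.9999. In Atm-KO cells the difference was -0.25 ± 0.33, with pairs at -0.37, -0.34 and -0.04. The effects differed between the genotypes by 0.68 ± 0.47 (adjusted p = 0.9999, and 0.977 with the block), so the fall was not shown to depend on Atm.

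**Figure D4:**
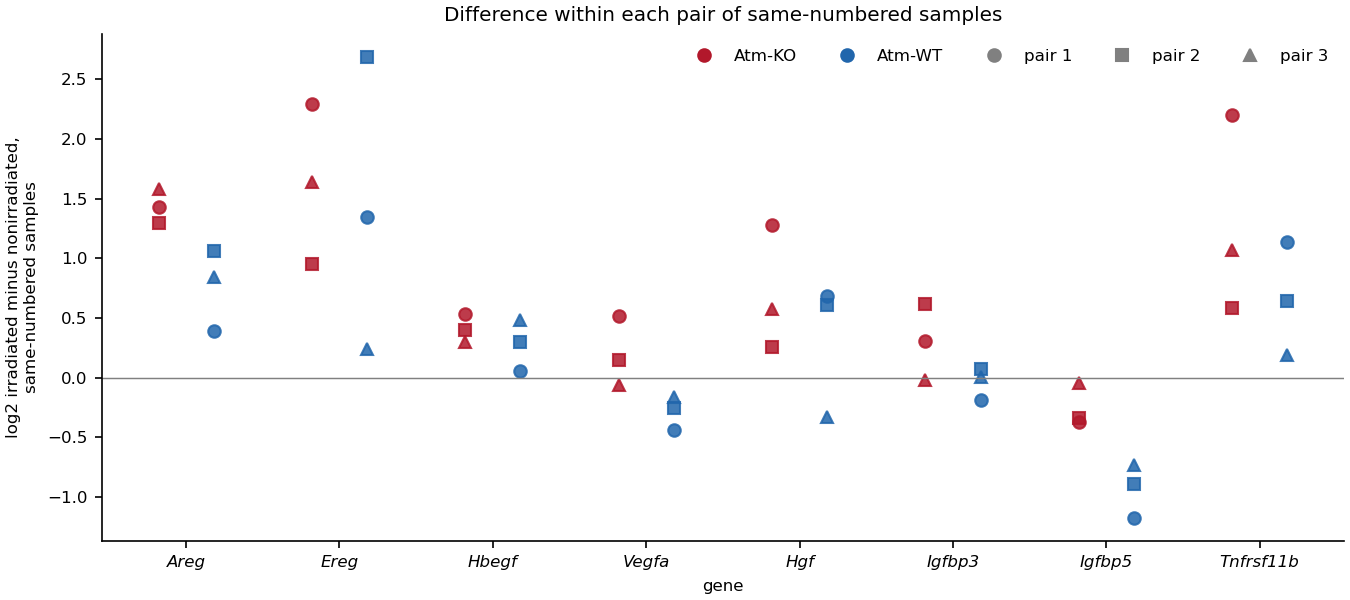
Irradiated minus nonirradiated log2 level (y axis) within each pair of samples of the same number, with Atm-KO pairs in red to the left of Atm-WT pairs in blue for each gene. The Atm-KO pairs of Areg lie between 1.29 and 1.58 and the Atm-WT pairs of Igfbp5 between -1.17 and -0.73, while those of Ereg and Tnfrsf11b spread widely.

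The rest of the IGF system, 17 listed genes of which 12 were tested, gave 1 call with the block and none without it. Pappa, a protease that cuts IGF binding proteins and frees IGF, rose on irradiation in Atm-KO cells to 2.61 ± 0.57, against 1.38 ± 0.25 in nonirradiated cells (SD, n = 3 each). The difference was 1.23 ± 0.25 with an adjusted p of 0.048 by limma with the replicate block and 0.208 without it. The block called 1.18% of all features higher there. In Atm-WT cells Pappa was at 2.46 ± 0.21 when irradiated and 1.59 ± 0.06 when not, a difference of 0.87 that did not pass. The median over the 12 genes was 0.06 for irradiation in Atm-KO and -0.12 in Atm-WT cells, against -0.05 and -0.02 over all features.

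Tnfrsf11b, the gene for osteoprotegerin, had the widest spread within groups of the 8 genes, a pooled SD of 0.90. In Atm-KO cells it was at 0.81, -1.27 and -1.33 when irradiated, against -1.39, -1.85 and -2.40 when nonirradiated. In Atm-WT cells it was at 0.19, -1.69 and -1.41 when irradiated, against -0.94, -2.33 and -1.60 when nonirradiated. Number 1 was the highest sample in every group, and the groups overlapped in Atm-WT cells but not in Atm-KO cells. All 6 pairs had the irradiated sample higher, by 2.20, 0.58 and 1.07 in Atm-KO cells and by 1.13, 0.65 and 0.19 in Atm-WT cells. Neither difference passed in limma (1.28 ± 0.63 with adjusted p = 0.664, or 0.0712 with the block, in Atm-KO cells, and 0.66 ± 0.63 with adjusted p = 0.99997 in Atm-WT cells). Of 4 genes for its ligands and their receptors 3 were tested and none passed. Tnfsf11, the gene for RANKL, was at -4.67 ± 0.76 in irradiated and -5.30 ± 0.64 in nonirradiated Atm-KO cells (SD, n = 3 each), and at -5.56 ± 0.82 in irradiated and -5.89 ± 0.29 in nonirradiated Atm-WT cells, where 1 of 3 arrays measured it.

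Between the genotypes, Hgf, Igfbp5 and Tnfrsf11b overlapped in either treatment, and none passed. In irradiated cells Hgf was 0.70 ± 0.40 higher in Atm-KO cells, 1.82 within the second slide. Igfbp5 was 0.42 ± 0.33 higher there, and 0.65 within the second slide. Tnfrsf11b was 0.37 ± 0.63 higher, and 2.22 within the second slide. For all of these genes the Atm-KO sample on that slide is a number 1 and the Atm-WT sample a number 3. Over all groups number 1 was higher than the other numbers by 0.75 for Hgf, 0.51 for Igfbp5 and 1.40 for Tnfrsf11b. In nonirradiated cells the differences were 0.31 for Hgf, -0.26 for Igfbp5 and -0.25 for Tnfrsf11b, against 0.22, 0.29 and 0.21 within the second slide.

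The effect of irradiation in Atm-KO cells exceeded that in Atm-WT cells for all 8 genes in the limma fit, with a median of 0.43, against -0.06 over all features. The differences of effects not given above were 0.13 ± 0.54 for Hbegf, 0.49 ± 0.34 for Vegfa, 0.38 ± 0.57 for Hgf, 0.34 ± 0.33 for Igfbp3 and 0.63 ± 0.89 for Tnfrsf11b. For Ereg, Hbegf, Hgf and Tnfrsf11b the standard error was larger than the difference, and the sign turned without 1 array for Ereg, Hbegf and Tnfrsf11b.

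Counted by overlap, 4 of 8 genes had irradiated Atm-KO samples all above the nonirradiated ones (Areg, Ereg, Hgf and Tnfrsf11b), where 6.7% of all features did. None had them all below, against 10.4% of features. In Atm-WT cells 2 were all above (Areg and Ereg, against 4.5% of features) and 1 all below (Igfbp5, against 5.7%). In irradiated cells 3 genes had the Atm-KO samples all above the Atm-WT ones (Areg, Ereg and Hbegf, against 3.13%) and 1 all below (Igfbp3, against 3.72%). In nonirradiated cells 1 was all above (Areg, against 8.29%) and 2 all below (Igfbp3 and Vegfa, against 5.4%). The median difference of the 8 genes was 0.56 for irradiation in Atm-KO and 0.30 in Atm-WT cells, against -0.05 and -0.02 over all features. Since Areg was tested only through irradiated Atm-KO cells and Ereg only through the irradiated groups, these counts and medians, and that of the difference of effects, describe the 8 genes and are not read against the values of all features.

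Of 20 other growth factors that fibroblasts can make, 18 were tested, and 3 rose on irradiation in Atm-KO cells with the replicate block. The block called 1.18% of all features higher there. Fgf2, a mitogen of fibroblasts, was at -2.73 ± 0.23 in irradiated and -3.81 ± 0.16 in nonirradiated Atm-KO cells (adjusted p = 0.031). Inhba, which encodes the activin A subunit, was at 2.55 ± 1.03 and 1.04 ± 0.33 in the same order (adjusted p = 0.0373). Gdf15, a stress-induced member of the TGF-beta family, was at 2.43 ± 0.49 and 1.62 ± 0.36 (adjusted p = 0.049). In Atm-WT cells 1 of the 18 rose, Gdf15 again, to 1.81 ± 0.53 in irradiated cells, against 0.92 ± 0.47 in nonirradiated ones (SD, n = 3 each, adjusted p = 0.0315). There the block called 2.26% of all features in either direction. No gene of this list passed in limma without the block. For genotype in irradiated cells, 0 genes of the EGF, ERK feedback, HGF, IGF, osteoprotegerin and other growth factor lists passed with or without the block.

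Sample number 1 stood apart for some of the 8 genes. Over the 4 groups, Tnfrsf11b averaged -0.33 in number 1 and -1.74 in numbers 2 and 3, a difference of 1.40 that 1.56% of all features exceeded. Hgf was 0.75 higher and Hbegf 0.75 lower in number 1, where the median of all features was -0.17. Without number 1 the irradiation difference of Tnfrsf11b was 0.82 in Atm-KO and 0.42 in Atm-WT cells, against 1.28 and 0.66 with it, and that of Hgf was 0.42 and 0.14, against 0.70 and 0.32. The part of whatever sets number 1 apart in these results was not tested.

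Markers of other cell types moved with genotype, and some with irradiation. Of 12 macrophage and blood cell markers listed, 11 were on the array. Their summed level was -1.60 to -0.87 in irradiated Atm-KO cells, against 1.14 to 1.79 in irradiated Atm-WT cells, and -1.96 to -0.80 in nonirradiated Atm-KO cells, against 1.62 to 2.49 in nonirradiated Atm-WT cells. Of 9 tested, 5 were lower in irradiated and 8 in nonirradiated Atm-KO cells in limma without the block. That fit called 0.206% and 0.857% of all features in these comparisons, in either direction. Adgre1, C1qa, C1qc, Cd53, Laptm5 and Tyrobp were tested only because Atm-WT groups had them well above background on all 3 arrays. Their calls are a description, and the counts are not read against the shares. Ptprc and Itgam, which define blood cells and myeloid cells, were well above background on 2 of 12 arrays each. In bulk RNA, fewer cells of a type and less RNA per cell cannot be told apart. The part of these macrophage and blood cell markers in the genotype differences of Areg, Hbegf, Igfbp3 and Vegfd was not tested. The endothelial marker Cdh5 was also lower in nonirradiated Atm-KO cells (-3.11 ± 0.61, limma adjusted p = 0.0373). It was 1 of 4 endothelial markers tested, of which 1 had a positive difference. Cdh5 was tested only because Atm-WT groups had it well above background. In each Atm-KO group 1 of 3 arrays did, so its call is a description. Pecam1 was well above background on 0 of 12 arrays. The osteoblast marker Bglap was higher in Atm-KO cells, by 1.64 ± 0.27 in irradiated and 2.05 ± 0.27 in nonirradiated cells (adjusted p = 0.0298 and 0.00273). It was the only 1 of 4 osteoblast markers tested that passed, but all 4 were higher in Atm-KO cells in both treatments. Their medians were 1.06 in irradiated and 1.29 in nonirradiated cells, against -0.005 and 0.04 over all features. The part of these osteoblast markers in the members' genotype differences was not tested. In Atm-WT cells Bglap also rose with irradiation, by 1.504 ± 0.27 (adjusted p = 0.0294), 1 of 4 osteoblast markers tested, of which 2 had a positive difference and whose median was 0.05.

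For irradiation the replicate block called 2.05% of all features in Atm-KO and 2.26% in Atm-WT cells. Of 9 macrophage and blood cell markers, 2 rose in Atm-KO cells, C1qc by 1.17 and Cd53 by 1.63 (limma adjusted p = 0.0291 and 0.0189). C1qc was well above background on 1 of 3 arrays in either Atm-KO group. Cd53 was so on 2 of 3 irradiated and 1 of 3 nonirradiated ones, so both rises lie near the background. Of the 9, 5 had a positive difference in Atm-KO cells, and 0 of 9 passed in Atm-WT cells. Of 8 epithelial and keratinocyte markers tested, the tight junction gene Cldn7 fell with the block, by differences of -1.56 in Atm-KO and -1.03 in Atm-WT cells (limma adjusted p = 0.0163 and 0.044). Of the 8, 4 had a positive difference in Atm-KO and 5 in Atm-WT cells, with medians of -0.003 and 0.06. The summed level of that list was 0.71 to 2.38 in irradiated and 0.76 to 2.30 in nonirradiated Atm-KO cells, and 0.62 to 1.66 in irradiated and 0.40 to 1.31 in nonirradiated Atm-WT cells. Bglap rose in both genotypes with the block, by 1.09 in Atm-KO and 1.504 in Atm-WT cells (adjusted p = 0.049 and 0.012). The summed osteoblast markers were at 0.37 to 2.02 in irradiated and 0.51 to 1.99 in nonirradiated Atm-KO cells, and at -0.07 to 0.86 in irradiated and 0.75 to 0.81 in nonirradiated Atm-WT cells. The part of these markers in the irradiation differences of Areg and Igfbp5 was not tested.

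**Figure D5:**
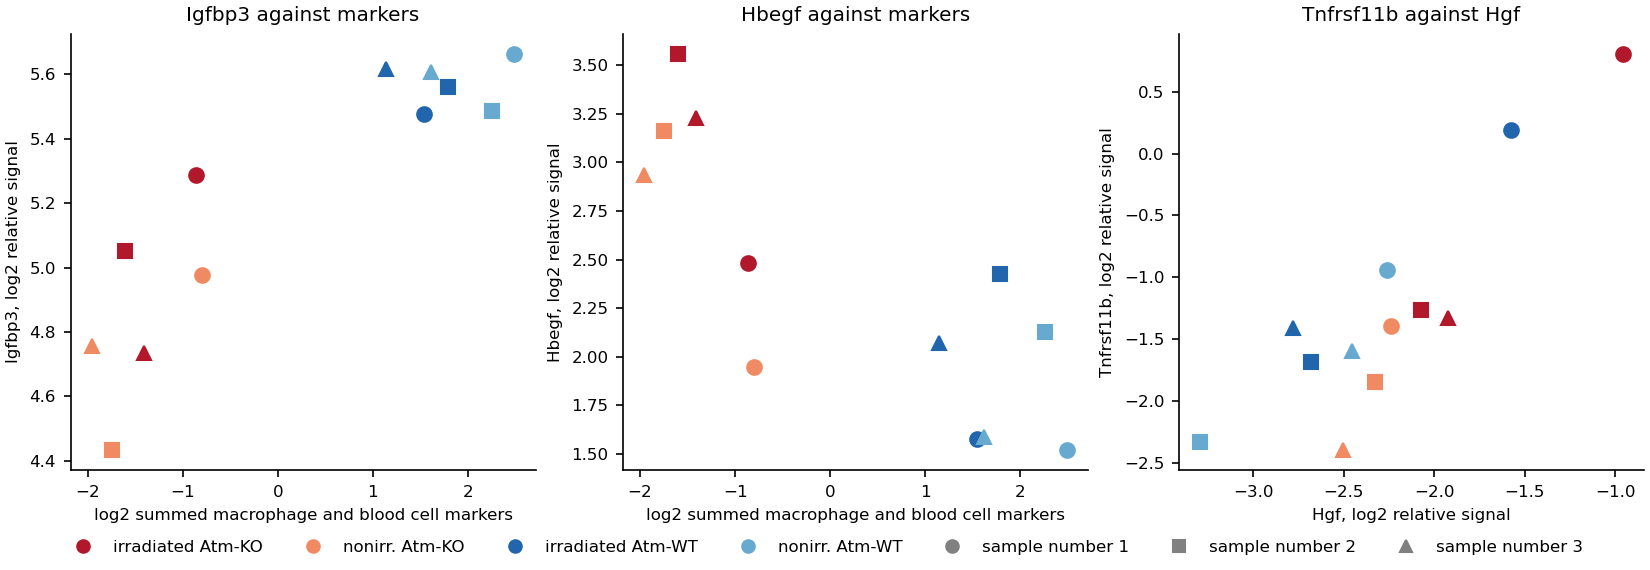
Each of the 12 arrays by the log2 summed level of macrophage and blood cell markers (x axis) against Igfbp3 and Hbegf (y axes, log2 relative signal, left and middle), and Tnfrsf11b against Hgf (right). Colours are groups and shapes sample numbers; Atm-KO and Atm-WT arrays form separate clusters along the marker axis, and the number 1 samples of both irradiated groups stand at the upper right of the last panel.

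Among all named genes tested, those whose levels followed a member most closely over the 12 arrays were found by Pearson's r, which is a description, since arrays share groups, slides and numbers. Areg was most like Bst1 (0.96) and Gstt4 (0.95), and Hbegf most like Slc25a37 (0.98) and Epha2 (0.97). Igfbp3 was most like C1qc (0.95), one of the macrophage markers above, and Nrros (0.95). Tnfrsf11b was most like Mak16 (0.98) and Coq10b (0.98), and Hgf most like Ncoa7 and Dnttip2 (both 0.96). The other members had a lower best r, Igfbp5 with Prpsap2 (0.92), Vegfa with Adam19 (0.86) and Ereg with Gbp6 (0.86). Between members, Hgf and Tnfrsf11b had r of 0.88, and 0.95 after each group's mean was taken off, and Areg and Ereg had 0.68, and 0.09 after the means were taken off.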

How the data were processed

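RNA of 12 mouse embryonic fibroblast samples was hybridised to single-colour Agilent arrays, 1 array a sample. The deposited files hold scanned spot intensity, background-subtracted within each array by Feature Extraction 10.7.1.1 per the file headers, while version 11.0 stands in the submitters' processing notes. The authors' deposited log2 matrix states no scale or centring. By comparison with the scanner files it holds the same signal, scaled to the 75th percentile of the array and centred per probe, and it was used as an alternative. Other deposited columns used were median spot and background intensity and flags, which are other values.

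After control spots were left out, each value was log2 processed signal less the 75th percentile of its array, averaged over a probe's spots. Outlier spots were left out of this average unless all spots of the probe on that array were flagged. The 75th percentile was taken with outlier spots included. Probes were named by RefSeq accession, and 25097 of 41174 had a gene. A gene was represented by its probe with the highest mean, and tested when all 3 arrays of some group had it well above background (18430 features, 12805 of them named genes). A group-means model over all 12 arrays was fitted with limma 3.58.1 in R 4.3.3 and eBayes (8 residual and 4.13 prior degrees of freedom), with Benjamini-Hochberg adjustment at 0.05. Scripts were tested on simulated data.

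Whether numbers pair samples was checked by correlating deviations from group means over all features. The correlations were 0.51, 0.27 and 0.50 for irradiation in Atm-KO cells, 0.85, 0.73 and 0.48 in Atm-WT cells and 0.63, 0.62 and 0.22 for genotype in irradiated cells. The number was therefore held as a block in these comparisons. For irradiation it was held as pairs within genotype, and for genotype as a term shared by all groups. For number 2 of the first and number 3 of the last of these comparisons, a sample of another number correlated more closely (0.28 against 0.27, and 0.39 against 0.22). The correlations were -0.000, 0.18 and -0.22 for genotype in nonirradiated cells, where the block was used only as an alternative. The nonirradiated samples still entered the shared number term of the genotype fit. The labels do not say what a shared number stands for.

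The members, gene lists and tests were chosen with earlier results of these data known. Named genes are the 8 members, up to 4 per list with the smallest p, genes called in a list and the 2 genes most like each member. Atm and Cdkn1a were named as checks of the labels. Alternatives were normexp, quantile normalization, the deposited matrix, no filter or a 12-array filter on dim probes, the mean of probes, slide as a fixed or random block, only the groups compared, the replicate block and leaving out samples.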

Additional observations from a re-analysis of the deposited data

How the results depend on the processing

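Counts of members called depended on the replicate block. Without it, 0 members were called in each comparison under every alternative but the ones added after seeing the data, among them all fits without 1 array (counts from 0 to 0), the slide terms and the deposited matrix. With the replicate block the counts were 1 for irradiation in Atm-KO cells, 1 for irradiation in Atm-WT cells and 2 for genotype in irradiated cells. For genotype in nonirradiated cells, where same-numbered samples did not deviate together over all features, the count was 1 (Hbegf, limma adjusted p = 0.046). The block changed no other call of a member. Leaving out 1 number of 1 genotype with the block, an alternative added after seeing the data, gave 0 to 2 for irradiation in Atm-KO cells, 0 to 1 in Atm-WT cells, 0 to 2 for genotype in irradiated and 0 to 3 in nonirradiated cells. Without number 1 of all groups and with no block, 1 was called for genotype in irradiated and 2 in nonirradiated cells.

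Among single members' values, apart from the fits without 1 array, signs turned in 27 alternatives. There 609 kept sign and side of the threshold, and 26 kept the sign and passed. In the fits without 1 array, counted separately, 17 further values turned and 463 kept sign and side of the threshold. Normexp was run on median spot signal, chosen after seeing that the files hold no mean signal, and shifted the median of all features to -0.16 for irradiation in Atm-WT cells, 0.16 for the difference of effects and -0.13 for genotype in nonirradiated cells. It turned irradiation in Atm-WT cells for Areg (-0.68), Ereg (-0.53), Hgf (-0.19) and Igfbp3 (0.29), the difference of effects for Hbegf (-0.025), genotype in irradiated cells for Vegfa (-0.011), and genotype in nonirradiated cells for Areg (-0.56), Ereg (-0.56) and Hgf (-0.29). The mean over probes turned irradiation in Atm-WT cells for Vegfa (0.072), and quantile normalization that for Igfbp3 (0.014). Slide as a fixed term turned genotype for Ereg in irradiated (-0.00285) and nonirradiated cells (-0.21), and in nonirradiated cells Igfbp5 (0.13) and Tnfrsf11b (0.90). Leaving out number 1 of all groups turned Igfbp3 for irradiation in Atm-WT cells (0.042), the difference of effects for Ereg (-0.17) and Hbegf (-0.045), and Vegfa between irradiated genotypes (-0.24). With the block and without 1 number of 1 genotype, Igfbp3 turned for irradiation in Atm-WT cells (0.042), Ereg for the difference of effects (-0.13 and -0.39), Vegfa between irradiated genotypes (-0.20 and -0.16), and between nonirradiated genotypes Ereg (-0.19 and -0.34) and Tnfrsf11b (0.074). For these the cause was not tested.

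Leaving out 1 array gave ranges across 0 for irradiation in Atm-WT cells for Hgf (-0.062 to 0.54) and Igfbp3 (-0.085 to 0.0052), for the difference of effects for Ereg (-0.42 to 0.86), Hbegf (-0.24 to 0.43) and Tnfrsf11b (-0.077 to 1.21), between irradiated genotypes for Vegfa (-0.16 to 0.13) and Tnfrsf11b (-0.33 to 0.95), and between nonirradiated genotypes for Ereg (-0.26 to 1.02), Igfbp5 (-0.43 to 0.067) and Tnfrsf11b (-0.61 to 0.088). A filter on all 12 arrays left out Areg and Ereg, normexp on mean signal was not run, and fitting only the groups compared gives no difference of effects. Of the 6 nonirradiated arrays, 3 did not have Areg and 4 did not have Ereg well above background, which limits their differences.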
